A study of Mus musculus with 15 samples.

Results

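The 10 genes described here are 8 receptors and 2 lipid transporters: the PPAR genes *Ppara* and *Ppard*, the liver X receptor (LXR) genes *Nr1h3* and *Nr1h2*, the retinoid X receptor (RXR) genes *Rxra* and *Rxrb*, the retinoic acid receptor (RAR) genes *Rara* and *Rarg*, and the LXR target genes *Abca1* and *Abcg1*. They were chosen by symbol and not by a cut on their values, though with earlier results of these data known. All 10 were among the 21110 genes listed for every library. The study compared the ear transcriptome of C57BL/6 wild type mice with that of mice of the same background in which *Socs3* was knocked out under keratin 5 (*Socs3* cKO), at 2 and at 10 weeks after birth. Its pathway analysis of the differentially expressed genes named LXR/RXR signaling and PPAR signaling, and the question here was what the receptors themselves and their direct targets did. There were 15 libraries of 1 mouse each: 4 of each genotype at 2 weeks, and 3 of the wild type with 4 *Socs3* cKO at 10 weeks. Keratin 5 is made by basal keratinocytes of the epidermis and hair follicle, so that *Socs3* is deleted in those cells and their progeny, and the other cells of the ear keep the gene. The sample labels name keratinocytes as the source, whereas the protocol describes RNA of ear specimens. In such bulk tissue, fewer cells of a type and less RNA per cell cannot be told apart.

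These receptors are transcription factors of the nuclear receptor superfamily, switched on by lipophilic ligands. PPARs bind fatty acids and their derivatives and drive genes of fatty acid oxidation and lipid storage. LXRs bind oxysterols and drive cholesterol efflux and fatty acid synthesis. RARs bind all-trans retinoic acid. All of them bind DNA as heterodimers with an RXR, and without ligand many hold corepressors such as NCOR1 at their targets. In the epidermis they are known for roles in keratinocyte differentiation, the lipid barrier and the restraint of inflammatory genes, and PPARδ is the most abundant PPAR of the skin.

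Values were FPKM, fragments scaled by the authors to transcript length and to the mapped reads of the library, and comparisons were made on log2(FPKM + 0.1), a scale that understates changes of weakly expressed genes. A gene was tested where its FPKM was at least 1 in at least 3 libraries of the comparison, which all 10 genes met at both ages. Below, "changed" means an adjusted p below 0.05 in limma, with Benjamini-Hochberg adjustment over all genes tested. A DEG had an adjusted p below 0.01 and a |log2(FC)| of at least 1, and log2(FC) is *Socs3* cKO minus wild type unless stated otherwise. Nothing in the labels says how animals were paired or housed, so the p-values measure the spread between these mice.

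Some properties of the libraries touch the results. *Socs3* cKO replicate 1 at 2 weeks stood apart, with 11698 genes at an FPKM of at least 1 against 12684 to 12987 in the other *Socs3* cKO mice of that age. Its deviation from the mean of the wild type mice of that age fell with the GC content of transcripts (Spearman rho -0.61 across 13037 genes). The other *Socs3* cKO mice at 2 weeks showed the same trend (rho -0.50 to -0.37). Wild type mice, each set against the other wild type mice, had a rho of -0.09 to 0.18. At 10 weeks the deviation rose with transcript length in *Socs3* cKO mice (rho 0.18 to 0.51 across 12640 genes). Wild type mice of that age, each set against the others, had a rho of -0.30, 0.50 and -0.33 with length. In *Socs3* cKO these deviations include the difference between the genotypes. At 10 weeks, wild type mice had 1414 to 3176 genes listed at 0, against 4092 to 4233 in *Socs3* cKO. At 2 weeks the mice of both genotypes had 4044 to 4423 such genes, so the wild type at 10 weeks stood apart from all other groups. It is one side of the comparisons at 10 weeks, of the interaction and of age in the wild type. The numbers in the library names did not mix between the 4 groups, so any batch of libraries cannot be told apart from the condition. *Socs3* itself had 9.71 to 10.3 FPKM in wild type ears, against 1.25, 9.32, 12.6 and 3.51 in *Socs3* cKO at 2 weeks, and 2.02 to 4.81 against 29.8 to 47.7 at 10 weeks. A value for the whole gene in the whole ear does not check a deletion in keratinocytes, and genotypes are given as labelled. Keratinocyte markers (*Krt5*, *Krt14*, *Krt1*, *Krt10*) summed to between 4724 and 11520 FPKM in the 15 libraries, so the labelled cell type was present. Hair shaft keratins summed to 405 to 687 FPKM in the wild type at 2 weeks and to at most 5.38 in all other libraries, and the part of hair shaft cells in the 2-week values was not tested.

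Most of the members are GC-rich genes. The transcript of *Rxrb* (61.5% GC), *Nr1h2* (60.6%), *Ppard* (59.5%), *Rara* (59.2%), *Rarg* (58.8%), *Nr1h3* (57.6%) and *Rxra* (57.0%) each had a higher GC content than 86.0% or more of the genes with a transcript in the annotation, whereas *Abca1* (47.5%) lay below the median of 49.7%. The trend of the 2-week *Socs3* cKO libraries with GC content runs through these genes. Results at 2 weeks were therefore also computed without *Socs3* cKO replicate 1, and after removal of each library's trend with transcript length and GC content. Such removal also takes out any difference between the genotypes that runs with length or GC content.

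In the ear of wild type mice at 2 weeks, the order of the 10 genes was clear. *Rarg*, the main RAR of the epidermis, was highest at 92.0 ± 3.61 FPKM (mean ± SD, n = 4). It was followed by *Rxra* at 56.2 ± 1.23, *Nr1h2* at 37.7 ± 1.15 and *Rxrb* at 23.3 ± 1.43. *Rara* at 19.5 ± 0.331 and *Ppard* at 18.7 ± 0.948 overlapped each other, and were followed by *Abca1* at 12.6 ± 1.04 and *Abcg1* at 5.32 ± 0.284. *Nr1h3* at 2.22 ± 0.300 and *Ppara* at 1.16 ± 0.211 were the lowest. Apart from *Rara* and *Ppard*, no neighbours in this order overlapped between mice. *Rarg* was the highest and *Ppara* the lowest by mean in each of the other groups too, but in *Socs3* cKO at 2 weeks all neighbours except *Abca1* and *Ppard* overlapped.

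**Figure D1:**
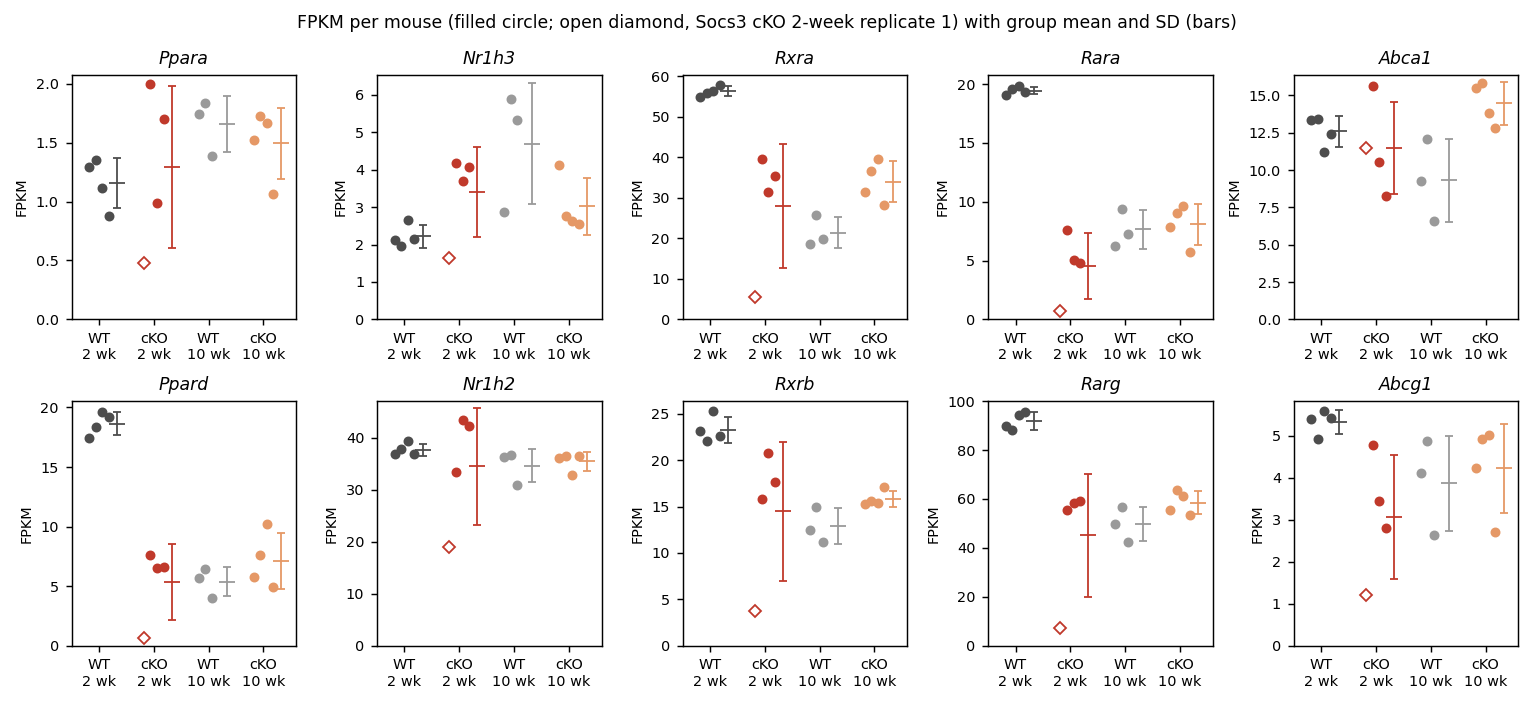
FPKM (vertical axis, from 0) of the 10 genes in each of the 15 mice, by genotype and age, with 1 point per mouse and the group mean and SD beside the points. The open diamond is *Socs3* cKO replicate 1 at 2 weeks, the lowest of its group for every gene but *Abca1*; *Ppard* and *Rara* lie near 19 FPKM in the wild type at 2 weeks and at 10.2 or below in every other library.

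At 2 weeks, *Ppard* and *Rara* were lower in *Socs3* cKO ears and no member was higher. *Ppard* encodes PPARδ, and lies on chromosome 17 of mm9 from 28369699 to 28438414 (plus strand). Its FPKM was 17.5, 18.4, 19.6 and 19.2 in wild type ears, against 0.623, 7.58, 6.56 and 6.57 in *Socs3* cKO. All 4 knockout values were below the wild type, and 3 of them lay between 6.56 and 7.58. Its log2(FC) was -2.24 (SE 0.70, adjusted p = 0.0297 in limma). *Rara* encodes RARα and lies on chromosome 11 from 98789132 to 98836256 (plus strand). Its FPKM was 19.1, 19.6, 19.9 and 19.3 in wild type ears, against 0.736, 7.57, 5.06 and 4.83 in *Socs3* cKO. The groups again did not overlap, with a log2(FC) of -2.45 (SE 0.61, adjusted p = 0.0140 in limma). So 2 of the 10 members changed, where 47.9% of all genes tested changed at this age (26.1% lower and 21.8% higher), and 0 were DEGs, where 14.4% of genes were. At an unadjusted p below 0.05 in limma, 4 of the 10 passed, where 58.0% of all genes did.

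Without *Socs3* cKO replicate 1, *Ppard* fell by 1.42 (SE 0.10, adjusted p = 1.6e-05) and *Rara* fell by 1.75 (SE 0.15, adjusted p = 4.7e-05) on the log2 scale. After removal of the length and GC trend, which left 27.5% of all genes lower and 13.3% higher, the log2(FC) was -1.11 for *Ppard* and -1.32 for *Rara*, and with both steps it was -0.66 and -0.99, all past the threshold in limma. The decrease of *Rara* passed the threshold in all 22 alternatives tried. That of *Ppard* passed in 18 and failed when any 1 of the 4 wild type mice was left out, with an adjusted p of up to 0.0672.

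*Rxra*, *Rarg* and *Rxrb* also lay lower in every *Socs3* cKO mouse at 2 weeks, but did not pass the test with all 4 mice. *Rxra*, the RXR that predominates in skin, measured 54.8, 56.0, 56.3 and 57.8 FPKM in wild type ears, against 5.54, 39.5, 31.5 and 35.4 in *Socs3* cKO (log2(FC) -1.33, SE 0.57, adjusted p = 0.0795 in limma). *Rarg* measured 89.8, 88.1, 94.4 and 95.7 FPKM in wild type ears, against 7.34, 55.6, 58.2 and 59.3 in *Socs3* cKO (log2(FC) -1.41, SE 0.63, adjusted p = 0.0900). In both genes, replicate 1 lay far below the other 3 mice, and those 3 lay below the wild type. *Rxrb*, an RXR gene expressed in most tissues, measured 22.1 to 25.3 FPKM in wild type ears, against 3.70, 15.9, 20.8 and 17.7 in *Socs3* cKO (log2(FC) -0.93, SE 0.49, adjusted p = 0.139). With *Ppard*, *Rara* and *Abcg1*, these made 6 of 10 members whose *Socs3* cKO mice were all below the wild type, where 33.2% of all genes tested behaved so. The median log2(FC) of the 10 members was -0.93, beside -0.21 for all genes tested.

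For *Rxra*, *Rarg* and *Rxrb*, the result differed without replicate 1 and with the length and GC trend removed. Without replicate 1, all 3 passed the test, with a log2(FC) of -0.67 for *Rxra* (adjusted p = 0.000485), -0.67 for *Rarg* (adjusted p = 0.000194) and -0.37 for *Rxrb* (adjusted p = 0.0192). In that fit 7 of the 10 members changed, 6 of them lower, where 61.3% of all genes changed and 34.7% were lower. With the trend removed as well, *Rxra* was at 0.06 and *Rarg* at 0.00, and *Rxrb* was higher at 0.39 (adjusted p = 0.00486). Thus of the members that were lower without replicate 1, *Ppard* and *Rara* alone stayed past the threshold in the same direction with the trend removed.

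The remaining receptors, *Nr1h3*, *Nr1h2* and *Ppara*, overlapped the wild type. *Nr1h3* encodes LXRα, the LXR of macrophages, liver and adipose tissue, and measured 2.12, 1.95, 2.65 and 2.15 FPKM in wild type ears, against 1.64, 4.18, 3.70 and 4.08 in *Socs3* cKO at 2 weeks. Of the *Socs3* cKO mice, 3 were above every wild type mouse and replicate 1 was below them all (log2(FC) 0.52, SE 0.30, adjusted p = 0.177 in limma). *Nr1h3* was higher without replicate 1 (log2(FC) 0.83, adjusted p = 0.00152), and with the trend removed (1.04, adjusted p = 0.00252). *Nr1h2*, which encodes the ubiquitous LXRβ, measured 36.8 to 39.3 FPKM in wild type ears, against 19.1, 33.4, 43.3 and 42.3 in *Socs3* cKO (log2(FC) -0.20, SE 0.25, adjusted p = 0.524). With the trend removed *Nr1h2* was higher by 0.63 (adjusted p = 0.00302), and by 0.59 without replicate 1 as well (adjusted p = 0.000307). *Ppara*, the PPAR of fatty acid oxidation in liver, measured 0.878 to 1.35 FPKM in wild type ears, against 0.479, 2.00, 0.986 and 1.70 in *Socs3* cKO, around the wild type on both sides (log2(FC) 0.00, adjusted p = 0.997). Without replicate 1 it was higher by 0.60 with the trend removed (adjusted p = 0.0472) and by 0.68 after quantile normalization (adjusted p = 0.0270), and it passed in none of the other alternatives.

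*Abca1* and *Abcg1* encode transporters that carry cholesterol and phospholipid out of cells, and are among the best known targets of LXR. At 2 weeks *Abca1* measured 13.3, 13.5, 11.2 and 12.4 FPKM in wild type ears, against 11.5, 15.6, 10.5 and 8.28 in *Socs3* cKO. The groups overlapped, with a log2(FC) of -0.17 (SE 0.20, adjusted p = 0.497 in limma). *Abcg1* measured 5.39, 4.92, 5.58 and 5.41 FPKM in wild type ears, against 1.22, 4.78, 3.46 and 2.81 in *Socs3* cKO, all below the wild type (log2(FC) -0.92, SE 0.36, adjusted p = 0.0630). It fell by 0.55 without replicate 1 (adjusted p = 0.0243), and with the trend removed as well it was at -0.14, not past the threshold.

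**Figure D2:**
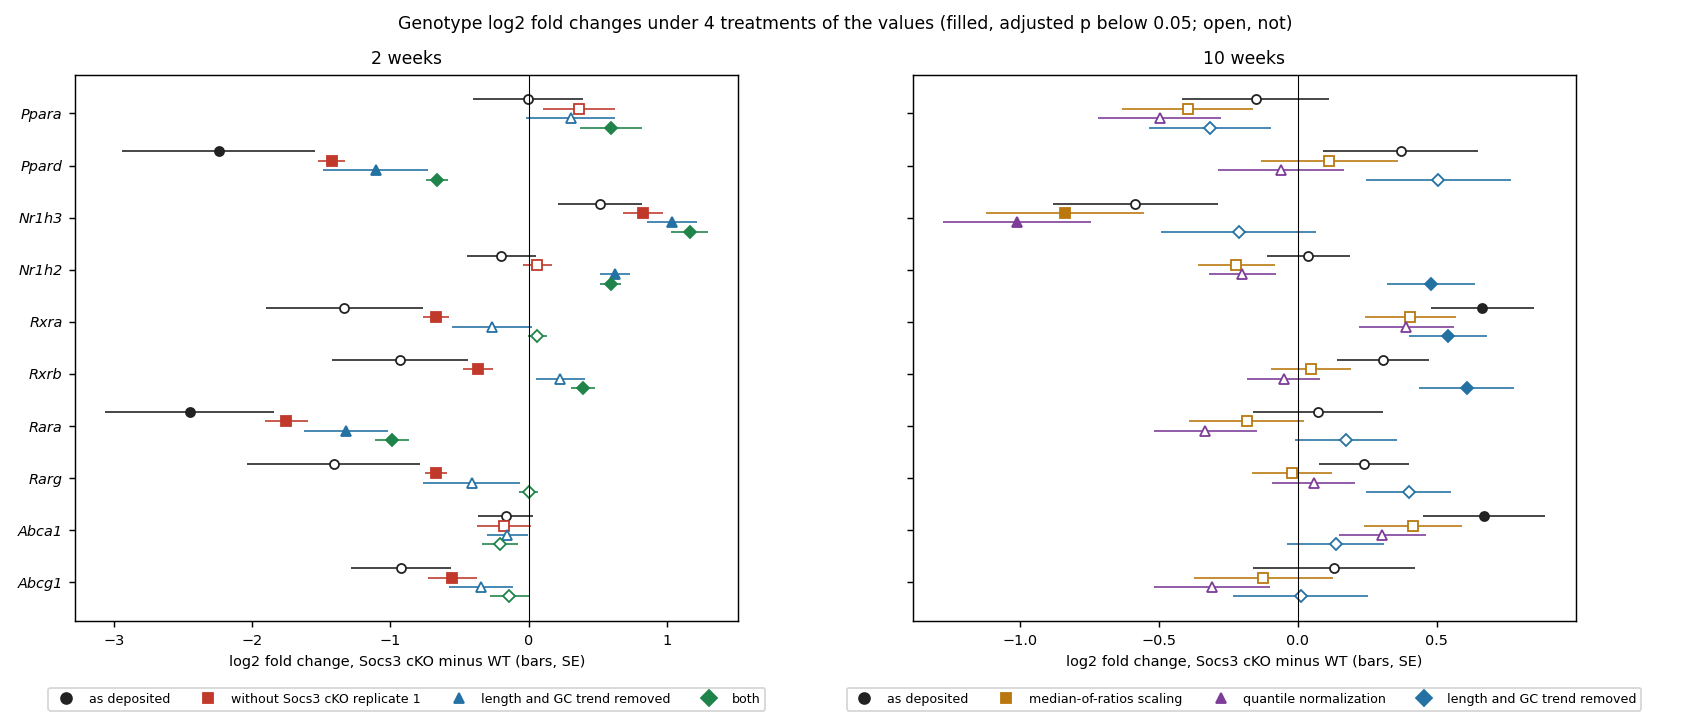
Log2 fold change of *Socs3* cKO against the wild type (horizontal axis; bars, SE) for each of the 10 genes at 2 weeks (left) and 10 weeks (right), under 4 treatments of the values shown by marker and colour, filled where the adjusted p was below 0.05. At 2 weeks *Ppard* and *Rara* stay left of 0 and filled in all 4, *Rxra* and *Rarg* move to about 0, and *Nr1h3* lies right of 0; at 10 weeks *Rxra* and *Abca1* are filled as deposited and open after both other scalings.

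At 10 weeks the picture was another one: *Rxra* and *Abca1* were higher in *Socs3* cKO, and no member was lower. *Rxra* lies on chromosome 2 from 27531960 to 27618477 (plus strand), and measured 18.7, 25.7 and 19.8 FPKM in wild type ears, against 31.5, 36.5, 39.5 and 28.2 in *Socs3* cKO. All *Socs3* cKO mice were above the wild type, with a log2(FC) of 0.66 (SE 0.19, adjusted p = 0.0203 in limma). *Abca1* lies on chromosome 4 from 53043659 to 53172767 (minus strand), has 50 exons in its longest transcript, and measured 9.28, 12.1 and 6.57 FPKM in wild type ears, against 15.5, 15.9, 13.8 and 12.8 in *Socs3* cKO. Its log2(FC) was 0.67 (SE 0.22, adjusted p = 0.0373 in limma), again without overlap. These were 2 changed members of 10, both higher, where 37.6% of all genes tested changed (28.7% higher and 8.96% lower). Neither was a DEG, where 14.9% of genes were. The median log2(FC) of the members was 0.18, beside 0.31 for all genes tested, so relative to that median *Rxra* was higher by 0.35 and *Abca1* by 0.36.

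Both increases depended on how libraries were scaled. With median-of-ratios scaling, which shifted the median of all genes by -0.25, *Rxra* was at 0.40 and *Abca1* at 0.41, and with quantile normalization, which shifted it by -0.34, at 0.39 and 0.30. Neither passed the threshold in either, and 20.3% of all genes were then higher and 15.7% lower with median-of-ratios scaling, and 19.0% and 20.2% with quantile normalization. With the length and GC trend removed, *Rxra* was higher by 0.54 (adjusted p = 0.0156 in limma), whereas *Abca1* was at 0.14 and did not pass. Leaving out wild type replicate 3, *Socs3* cKO replicate 2 or *Socs3* cKO replicate 3 left 0 members changed in limma. In these fits 22.3%, 26.9% and 27.2% of all genes changed.

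The promoter of *Abca1* is shown because that gene is the LXR target among the 10 that rose at 10 weeks and its response element near the start site is well known. The window runs from 250 bases before to 50 after the RefSeq start of *Abca1*, on the minus strand of GRCm38.p6 at chr4:53159846-53160145, a build other than the mm9 of the expression values. Capitals mark 15 bases whose reverse complement is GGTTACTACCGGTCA, 67 to 53 bases before the start. It begins with GGTTA and ends with GGTCA, which is the half-site AGGTCA without its first base.

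Abca1: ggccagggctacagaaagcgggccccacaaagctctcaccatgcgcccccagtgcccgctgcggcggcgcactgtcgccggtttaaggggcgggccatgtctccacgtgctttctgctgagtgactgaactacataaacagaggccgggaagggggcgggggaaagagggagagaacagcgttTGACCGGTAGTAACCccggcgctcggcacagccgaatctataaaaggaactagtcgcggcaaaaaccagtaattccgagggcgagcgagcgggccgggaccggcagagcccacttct

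The pattern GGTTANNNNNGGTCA, chosen after this window was read, occurred on either strand in 16 of 32851 RefSeq promoter windows of the same length (0.0487%), and in no other of the 9 members with a window. *Abcg1* was not in the table. The consensus repeats AGGTCANAGGTCA, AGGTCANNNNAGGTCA and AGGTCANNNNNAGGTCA, searched on both strands, were in none of the 9 windows and in at most 13 windows in all. The half-site AGGTCA, which each of them contains, was in the windows of *Rara*, *Rarg* and *Rxra*, and in 16.3% of all windows.

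The remaining members at 10 weeks did not pass the test on the values as deposited. *Ppard*, which had fallen at 2 weeks, measured 5.68, 6.43 and 4.03 FPKM in wild type ears, against 5.77, 7.60, 10.2 and 4.93 in *Socs3* cKO (log2(FC) 0.37, SE 0.28, adjusted p = 0.314 in limma). *Rara* measured 6.24, 9.42 and 7.28 FPKM in wild type ears, against 7.83, 9.04, 9.67 and 5.76 in *Socs3* cKO (log2(FC) 0.07, SE 0.23, adjusted p = 0.823). The groups of both genes overlapped. *Nr1h3* measured 2.86, 5.89 and 5.34 FPKM in wild type ears, against 4.14, 2.76, 2.64 and 2.54 in *Socs3* cKO (log2(FC) -0.58, SE 0.30, adjusted p = 0.144). Here 2 of 3 wild type mice were above all *Socs3* cKO mice, and the decrease passed the threshold with median-of-ratios scaling (-0.84), with quantile normalization (-1.01) and without wild type replicate 1 (-0.90). *Rxrb* ranged from 11.2 to 14.97 FPKM in wild type ears, against from 15.3 to 17.1 in *Socs3* cKO without overlap (log2(FC) 0.31, adjusted p = 0.167). With *Rxra* and *Abca1* it made 3 of 10 members whose *Socs3* cKO mice were all above the wild type, where 31.2% of all genes were. With the length and GC trend removed *Rxrb* (0.61, adjusted p = 0.0216) and *Nr1h2* (0.48, adjusted p = 0.0408) were higher, which with *Rxra* made 3 changed members, where 35.8% of all genes changed. The other 4 members overlapped as deposited, with a log2(FC) of 0.24 for *Rarg*, 0.13 for *Abcg1*, 0.04 for *Nr1h2* and -0.15 for *Ppara*.

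The effect of genotype differed between the ages for 4 members. The genotype by age interaction, the log2(FC) at 10 weeks minus that at 2 weeks, was 2.61 for *Ppard* (SE 0.83, adjusted p = 0.0204 in limma), 2.52 for *Rara* (SE 0.72, adjusted p = 0.0121), 2.00 for *Rxra* (SE 0.66, adjusted p = 0.0242) and 0.84 for *Abca1* (SE 0.30, adjusted p = 0.0353). Across all genes tested, 47.0% had an interaction and 34.6% a positive one, so that 4 of 10 is near the background. After quantile normalization 22.4% of all genes had a positive and 25.4% a negative interaction, and *Abca1* (0.18) no longer passed, as with median-of-ratios scaling (0.37). For *Nr1h3* it was -1.10 and missed the threshold (adjusted p = 0.0541). Without *Socs3* cKO replicate 1 the interaction was 1.79 for *Ppard*, 1.83 for *Rara* and 1.33 for *Rxra*, and 7 members had one, where 51.2% of all genes did. Without wild type replicate 3 at 10 weeks *Rara* alone had one, where 38.3% of all genes did. With the length and GC trend removed, *Ppard* (1.62) and *Rara* (1.50) passed the test, and *Rxra* (0.82) and *Abca1* (0.30) did not.

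With age, 3 of the receptors fell in the wild type between 2 and 10 weeks. *Ppard* fell by 1.80 (SE 0.61, adjusted p = 0.0247 in limma), *Rxra* by 1.40 (adjusted p = 0.0268) and *Rara* by 1.36 (adjusted p = 0.0449) on the log2 scale, and for all 3 the 2 ages did not overlap. *Nr1h3* went the other way and rose by 0.99 (SE 0.33, adjusted p = 0.0210). These were 4 changed members where 50.8% of all genes changed with age in the wild type (37.6% lower and 13.1% higher, or 23.5% and 26.9% after quantile normalization). By level, 7 members were lower at 10 weeks without overlap and 2, *Nr1h3* and *Ppara*, were higher, where 49.5% and 17.3% of all genes were. No member passed without wild type replicate 3 at 10 weeks, where 36.8% of all genes did, and *Nr1h3* alone without replicate 1, where 38.5% did. Over the 24 alternatives the fall of *Ppard* passed in 22, that of *Rxra* in 19 and that of *Rara* in 10 (adjusted p up to 0.129 in limma), and the rise of *Nr1h3* in 21. With the length and GC trend removed *Rxra* was at -0.62, not past the threshold, *Rara* fell by 0.72 and *Ppard* fell by 1.19. In *Socs3* cKO, no member changed with age by limma, where 10.1% of all genes did. In that contrast *Rara* alone had an unadjusted p below 0.05 (log2 difference 1.17, adjusted p = 0.146 in limma). By level, *Ppard* in 3 of the 4 *Socs3* cKO mice at 2 weeks (6.56 to 7.58 FPKM) lay within its range at 10 weeks over both genotypes (4.03 to 10.2).

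In the ratio of 2 isotypes within a library the library's scale factor cancels, apart from the pseudocount, but a trend with GC content does not. *Ppard* made up 94.1% ± 1.21 (SD, n = 4) of the summed FPKM of *Ppard* and *Ppara* in the wild type at 2 weeks and 75.5% ± 13.1 in *Socs3* cKO, against 76.3% ± 1.69 (n = 3) and 82.2% ± 2.80 (n = 4) at 10 weeks. The log2 ratio of *Ppard* to *Ppara* was 3.66, 3.67, 4.02 and 4.30 in wild type ears at 2 weeks, against 0.32, 1.87, 2.62 and 1.89 in *Socs3* cKO. The difference of means was -2.24 at 2 weeks, with every *Socs3* cKO mouse below the wild type, and 0.52 at 10 weeks, with every *Socs3* cKO mouse above it.

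*Nr1h3* over *Nr1h2* was higher by 0.72 in *Socs3* cKO at 2 weeks without overlap, where *Nr1h3* made up 8.93% ± 1.53 of the summed FPKM of both LXR genes, against 5.54% ± 0.583 in the wild type (SD, n = 4). At 10 weeks this ratio overlapped (difference -0.62). *Rarg* over *Rara* was higher by 1.04 at 2 weeks without overlap and overlapped at 10 weeks (difference 0.17). *Rxra* over *Rxrb* overlapped at both ages (differences -0.40 and 0.36), and *Rxra* made up 59.9% to 72.0% of the summed FPKM of both in the 15 libraries. *Abca1* over *Abcg1* was higher in every *Socs3* cKO mouse at both ages, by 0.76 at 2 weeks and by 0.54 at 10 weeks.

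None of the 10 ratio comparisons passed the exact permutation test after adjustment over the 10. At 2 weeks 4 of the 5 had an exact p of 0.0286, the smallest that 4 mice against 4 allow, with an adjusted p of 0.0714. At 10 weeks the smallest exact p possible is 0.0571. Without *Socs3* cKO replicate 1, the differences at 2 weeks were -1.79 for *Ppard* over *Ppara*, 0.76 for *Nr1h3* over *Nr1h2*, 1.08 for *Rarg* over *Rara* and 0.38 for *Abca1* over *Abcg1*. After the length and GC trend was removed they were -1.41, 0.41, 0.91 and 0.19 in the same order, and at 10 weeks *Ppard* over *Ppara* was at 0.82 and *Abca1* over *Abcg1* at 0.13.

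**Figure D3:**
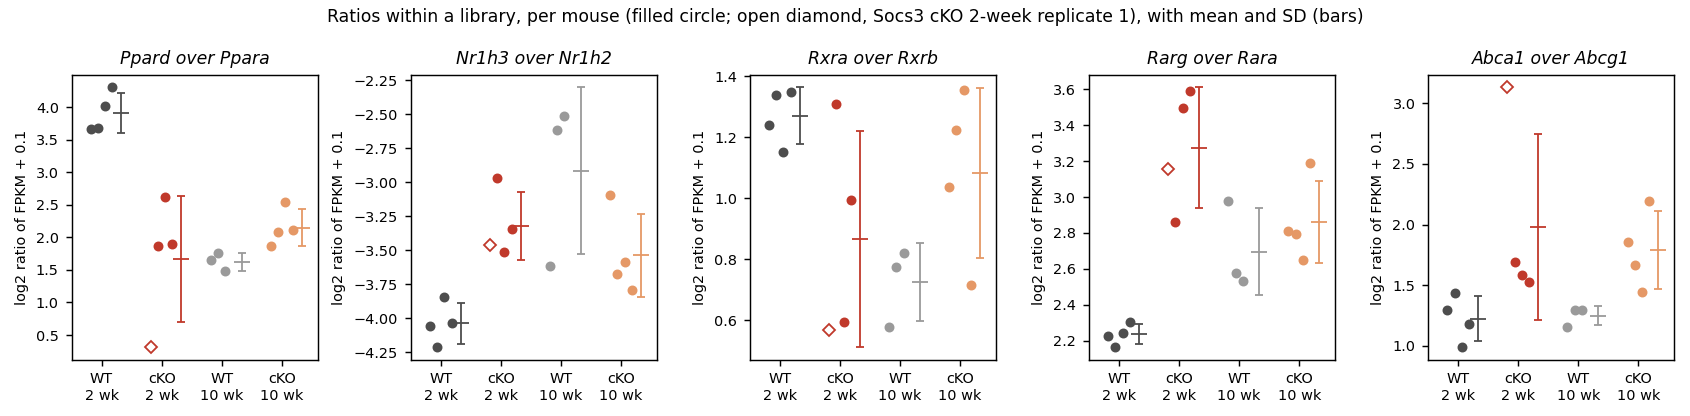
Log2 ratio of (FPKM + 0.1) of 2 genes within each library (vertical axis), by genotype and age, with 1 point per mouse and the mean and SD beside the points. At 2 weeks *Socs3* cKO lies below the wild type for *Ppard* over *Ppara* and above it for *Nr1h3* over *Nr1h2*, *Rarg* over *Rara* and *Abca1* over *Abcg1*; at 10 weeks *Ppard* over *Ppara* lies above the wild type instead.

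Across the 15 libraries *Ppard*, *Rxra*, *Rxrb*, *Rara* and *Rarg* varied together. As a description, the Pearson correlation of log2(FPKM + 0.1) ranged from 0.87 between *Rxrb* and *Rara* to 0.97 between *Rxrb* and *Rarg*. The points share the 4 groups, the single low library and GC-rich transcripts, so the values describe these libraries only. The same receptors correlated with *Abcg1* at 0.81 to 0.91 and with *Nr1h2* at 0.68 to 0.91, so they were not a group apart from those genes. The 3 genes of the whole table nearest to *Ppard* were *Hr*, *Mllt1* and *Grk6* (r 0.99 each), those nearest to *Rara* were *Arhgef1*, *Ptpn23* and *Lmf2*, and those nearest to *Rxra* were *Dctn1*, *Pcif1* and *Man1b1*. *Abca1* was nearest to *Usp45*, *Fndc3a* and *Fbxo11* (r 0.92 each), and its correlation with other members was at most 0.44, that with *Abcg1*. *Nr1h3* correlated with *Ppara* at 0.61 and with other members at -0.32 to 0.33. The genes nearest to *Nr1h3* were *Adssl1*, *Nrap* and *Hspb7* (r 0.89 to 0.90), which are genes of striated muscle.

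Markers of muscle also differed between the genotypes. At 2 weeks 4 of 5 were higher in *Socs3* cKO, where 21.8% of all genes were. At 10 weeks 3 of 5 were lower, where 8.96% of all genes were. With the length and GC trend removed 0 of 5 were lower at 10 weeks, where 5.96% of all genes were. The skeletal muscle markers *Acta1*, *Ckm*, *Mylpf*, *Tnnt3* and *Myh4*, none at 0 in any group, summed to 602 to 916 FPKM in wild type ears, against 1418 to 2802 in *Socs3* cKO at 2 weeks. At 10 weeks they summed to 669, 1072 and 1143 FPKM in wild type ears, against 333 to 612 in *Socs3* cKO. Within groups, the mouse with the highest muscle sum had the highest *Nr1h3* in 2 of the 4 groups, and the mouse with the lowest sum had the lowest in 1. *Socs3* cKO replicate 1 at 2 weeks had the highest muscle sum of all and the lowest *Nr1h3*. Macrophage markers, 7 genes with none at 0, summed to 316 to 364 FPKM in wild type ears, against 416 to 834 in *Socs3* cKO at 2 weeks, and at 10 weeks to 426 to 738 against 792 to 1338. *Lyz2* was the largest term, with means of 146 and 350 FPKM at 2 weeks. Of the 7 markers 3 were higher at 2 weeks and 5 at 10 weeks, and none was lower, where 21.8% and 28.7% of all genes were higher. Adipocyte markers summed to 22.2 to 24.7 and 32.7 to 193 FPKM at 2 weeks, and at 10 weeks to 50.4 to 62.6 against 80.6 to 242. Of these 5 markers 2 were higher at 2 weeks and 4 at 10 weeks, and none was lower. The part of these cells in the levels of the members was not tested.

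**Figure D4:**
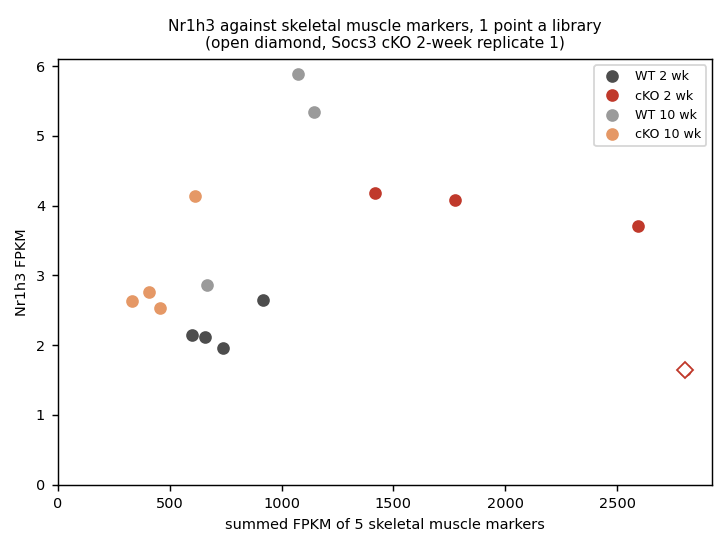
FPKM of *Nr1h3* (vertical axis) against the summed FPKM of 5 skeletal muscle markers (horizontal axis), 1 point per library, coloured by group. The *Socs3* cKO mice lie at higher muscle sums than the wild type at 2 weeks and at lower sums at 10 weeks, and the open diamond, *Socs3* cKO replicate 1 at 2 weeks, has the highest sum with an *Nr1h3* of 1.64 FPKM.

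The isotypes outside the 10 genes completed the families. *Pparg*, the PPAR of adipocytes, sebocytes and macrophages, was higher in *Socs3* cKO at both ages, and was a DEG at both. It measured 9.13, 12.0, 11.5 and 10.5 FPKM in wild type ears, against 33.7, 21.8, 27.7 and 28.5 in *Socs3* cKO at 2 weeks (log2(FC) 1.36, SE 0.17, adjusted p = 0.000768 in limma). At 10 weeks it measured 8.03, 8.22 and 9.97 against 19.1, 16.2, 15.5 and 24.9 FPKM (log2(FC) 1.09, SE 0.20, adjusted p = 0.00395). With the length and GC trend removed it was higher by 0.61 and 1.21. So at 2 weeks *Pparg* was higher in *Socs3* cKO (27.9 FPKM on average) than *Ppard* (5.33), where in the wild type it was lower (10.8 against 18.7), and the ranges of both genes did not overlap in either group. *Rxrg*, an RXR of muscle and brain, was lower at 2 weeks (log2(FC) -0.78, adjusted p = 0.00992 in limma). It measured 2.65 to 3.58 FPKM in wild type ears, against 1.50 to 1.96 in *Socs3* cKO. With quantile normalization *Rxrg* was at -0.27 at 2 weeks and did not pass (adjusted p = 0.342 in limma). At 10 weeks its log2(FC) was also -0.78, with every *Socs3* cKO mouse below the wild type, but missed the threshold (adjusted p = 0.0544 in limma). *Rarb* was at or below 1.20 FPKM in every library and was not tested.

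Target genes beyond *Abca1* and *Abcg1* were counted from lists of genes chosen for their known role, where 26.1% of all genes tested were lower and 21.8% higher at 2 weeks, and 8.96% and 28.7% at 10 weeks. Of 10 other LXR target genes tested, 2 were higher and 1 lower at 2 weeks, and 4 were higher and none lower at 10 weeks. At 2 weeks *Scd1*, the stearoyl-CoA desaturase of sebaceous glands, rose from 262 to 294 FPKM in the wild type to 886 to 1587 in *Socs3* cKO (log2(FC) 2.11), *Smpdl3a*, a phosphodiesterase, rose by 1.02, and *Mylip*, which encodes the ubiquitin ligase that degrades the LDL receptor, fell by 0.90. At 10 weeks *Pltp*, the phospholipid transfer protein, rose from 22.6 to 29.0 FPKM to 65.3 to 80.3 (log2(FC) 1.48), *Smpdl3a* rose by 0.77 and *Lpcat3*, a lysophospholipid acyltransferase, by 0.65. *Srebf1*, the LXR-driven regulator of fatty acid synthesis, overlapped at both ages, with 32.8 to 35.8 FPKM in wild type ears, against 5.75 to 54.7 in *Socs3* cKO at 2 weeks. The sebaceous gland markers, among them *Mc5r* and *Awat2*, summed to 133 to 140 FPKM in wild type ears, against 118 to 284 in *Socs3* cKO at 2 weeks, and at 10 weeks to 134 to 169 against 166 to 324, and their part in *Scd1* was not tested. Of these 5 markers 2 were higher at 2 weeks and 3 at 10 weeks, and none was lower. At 2 weeks 4 LXR targets were higher and 1 lower when *Socs3* cKO replicate 1 was left out (26.6% and 34.7% of all genes). With the length and GC trend removed, *Scd1* was higher (2.12), *Mylip* was lower (-0.85) and *Smpdl3a* (0.32) did not pass, whereas 7 LXR targets were higher and 1 lower with replicate 1 left out as well, where 22.4% of all genes were higher and 34.4% lower. With median-of-ratios scaling at 10 weeks 1 LXR target, *Pltp*, was higher and 1, *Srebf1*, was lower (-0.50), where 20.3% and 15.7% of all genes were. Without wild type replicate 3, 2 LXR targets were higher, where 17.8% of all genes were.

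Of 12 PPAR target genes tested, 5 were higher and 2 lower at 2 weeks, and 8 were higher and none lower at 10 weeks, with a median log2(FC) of 0.21 and 1.03 beside -0.21 and 0.31 for all genes. *Angptl4*, an inhibitor of lipoprotein lipase and a classical PPARδ target, changed in opposite directions. It fell from 14.7 to 19.1 FPKM in the wild type to 5.76 to 8.42 in *Socs3* cKO at 2 weeks (log2(FC) -1.39, SE 0.17, adjusted p = 0.000683 in limma). At 10 weeks it rose from 2.64 to 3.86 FPKM to 9.41 to 14.2 (log2(FC) 1.75, SE 0.24, adjusted p = 0.000962). The direction of *Angptl4* held with each scaling and with the trend removed. *Cpt1a*, which carries fatty acids into mitochondria for oxidation, likewise fell by 0.85 at 2 weeks and rose by 1.15 at 10 weeks. *Acadm*, *Fabp5* and *Plin2*, of fatty acid oxidation, transport and storage, rose at 2 weeks by 1.29, 1.27 and 1.26, and *Pdk4*, a kinase that restrains pyruvate oxidation, rose by 1.98 at 10 weeks. With median-of-ratios scaling 6 PPAR targets were higher at 10 weeks, with quantile normalization 7, and without wild type replicate 3 6. The shares of all genes higher in these fits were 20.3%, 19.0% and 17.8%. Without *Socs3* cKO replicate 1, 6 were higher and 2 lower at 2 weeks (26.6% and 34.7% of all genes). Removal of the length and GC trend left 4 higher and 3 lower at 2 weeks (13.3% and 27.5% of all genes), with a median of 0.05. *Fabp5* (0.03, adjusted p = 0.913 in limma) did not pass, while *Acadm* was at 0.82, *Plin2* at 1.14 and *Cpt1a* at -0.46. With both steps 6 were higher and 3 lower (22.4% and 34.4% of all genes).

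**Figure D5:**
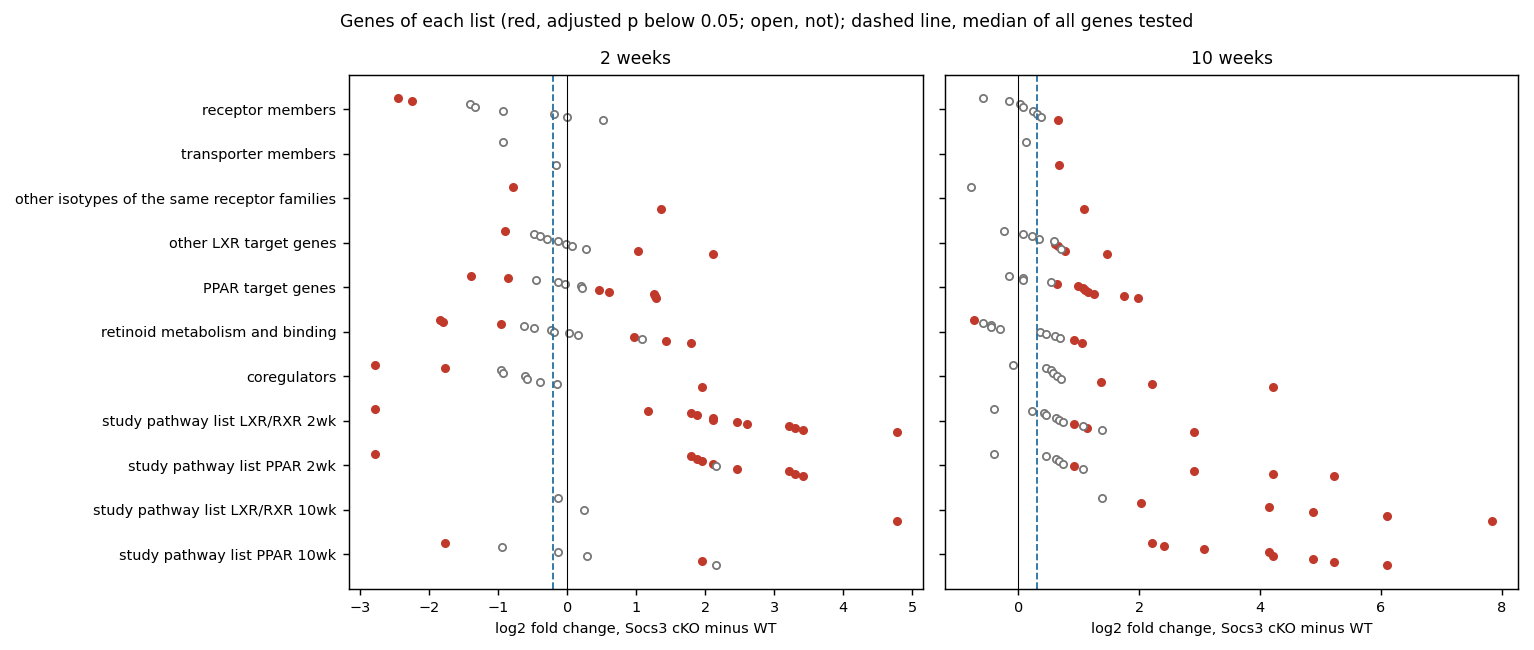
Log2 fold change of *Socs3* cKO against the wild type (horizontal axis) for each tested gene of the lists named on the vertical axis, at 2 weeks (left) and 10 weeks (right), red where the adjusted p was below 0.05, with the median of all genes tested as a dashed line. The receptors lie at or left of 0.52 at 2 weeks, and 11 of the 12 genes of the study's LXR/RXR list at 2 weeks lie right of 0. The study drew that list from its own DEGs, so its direction is not independent evidence.

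Retinoid genes moved in both directions, in counts near or below the share over all genes. Of 13 tested at 2 weeks 3 were higher and 3 lower, where 21.8% and 26.1% of all genes were. Of 11 at 10 weeks 2 were higher and 1 lower, where 28.7% and 8.96% were. The retinaldehyde dehydrogenases, which make retinoic acid, split at 2 weeks: *Aldh1a1* rose from 3.91 to 5.63 FPKM to 16.3 to 16.9 (log2(FC) 1.79), *Aldh1a2* fell by 1.84 and *Aldh1a3* fell by 0.96. *Rbp4* and *Crabp2*, which bind retinol and retinoic acid, rose by 1.43 and 0.98, and *Stra6*, the retinol uptake receptor, fell by 1.81. At 10 weeks *Aldh1a3* rose by 1.06, and *Cyp26b1*, which degrades retinoic acid, rose from 17.7 to 25.7 FPKM to 36.7 to 50.4 (log2(FC) 0.93). With *Socs3* cKO replicate 1 left out, 4 retinoid genes were higher and 4 lower at 2 weeks (26.6% and 34.7% of all genes). Removal of the length and GC trend left 2 higher and 4 lower (13.3% and 27.5% of all genes). *Crabp2* (0.20, adjusted p = 0.445 in limma) did not pass, and *Aldh1a1* was at 1.15 and *Stra6* at -1.03. With both steps 5 were higher and 3 lower (22.4% and 34.4% of all genes), and *Stra6* (-0.89) did not pass. *Aldh1a3* at 10 weeks (0.85) did not pass with the trend removed. At 10 weeks 1 was higher and 2 were lower with median-of-ratios scaling (20.3% and 15.7% of all genes). Without wild type replicate 3, 1 was higher and none lower (17.8% and 4.53% of all genes).

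Of 9 coregulators of the receptors tested, 1 was higher and 2 were lower at 2 weeks, where 21.8% and 26.1% of all genes were. At 10 weeks 3 were higher and none lower, where 28.7% and 8.96% of all genes were. *Nrip1*, the corepressor RIP140, rose at both ages, from 0.430 to 0.861 FPKM to 1.52 to 4.72 at 2 weeks (log2(FC) 1.96), and from 0.0982 to 0.360 FPKM to 2.68 to 6.68 at 10 weeks (log2(FC) 4.22). *Crebbp*, a histone acetyltransferase, fell by 1.76 at 2 weeks and rose by 2.21 at 10 weeks, and *Ncor1* rose by 1.36 at 10 weeks. At 2 weeks 1 coregulator was higher and 3 were lower with the length and GC trend removed (13.3% and 27.5% of all genes). *Crebbp* was then at -1.05 and missed the threshold (adjusted p = 0.0523 in limma). With replicate 1 left out as well 1 was higher and 4 were lower, *Crebbp* by 0.65 among them (22.4% and 34.4% of all genes). At 10 weeks 3 were higher and 1 lower with the trend removed (29.9% and 5.96% of all genes), and *Ncor1* was at 0.85.

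Beside its pathway calls, the study's analysis of upstream regulators placed PPARG among the top regulators at 2 weeks, which was not examined here. None of the 10 receptors and transporters was in the gene lists behind the study's pathway calls. Those lists were drawn by the study from the DEGs of its own test, which its methods base on these groups with further wild type mice that were not analysed here, so their direction is not independent evidence. The LXR/RXR list at 2 weeks had 12 genes, of which 11 were higher here and 1 was lower. Its genes were mostly of the interleukin-1 family or otherwise of inflammation, such as *Il1f8* (log2(FC) 3.41), *Il1f6* (3.30) and *S100a8* (4.77), a calcium-binding alarmin of activated keratinocytes and myeloid cells, and a single gene of it, *Scd1*, was also in the list of LXR targets used here. The PPAR list at 2 weeks had 10 genes, 8 higher, with *Nrip1* among those, and 1 lower. At 10 weeks the LXR/RXR list had 6 genes, of which 5 were higher, led by *Il6* (7.84), *Ptgs2* (6.10) and *Il1b* (4.88), and all 8 genes of the PPAR list were higher, *Fos* (5.22) and the coregulators *Nrip1* and *Crebbp* among them. The median log2(FC) of the LXR/RXR list at 2 weeks was 2.29 and that of the PPAR list 2.13, beside -1.13 for the 8 receptors. After the length and GC trend was removed these medians were 1.63, 1.57 and -0.02, and without *Socs3* cKO replicate 1 as well 1.91, 1.82 and 0.23, so the negative median of the receptors depended on that trend.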

How the data were processed

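Ears of 15 mice fell into 4 groups by their labels. The deposited FPKM values, 1 per gene and library, were made by the authors from single reads aligned with TopHat2 2.1.0 to mm9, and are normalized for gene length and mapped reads. The submitters' processing notes also name Cufflinks. They tested counts with edgeR, which was not repeated here. Read counts were not used here, so no counting error per value can be given.

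FPKM values were tested as log2(FPKM + 0.1) with limma 3.58.1 in R 4.3.3 (trend in the prior variance, 2-sided, Benjamini-Hochberg over all genes tested), within each age for genotype, and in 1 fit of all 4 groups for interaction and age. Isotype ratios were compared with exact 2-sided permutation tests in Python 3.11.15 (scipy 1.17.1). On simulated data, limma called 45 of 100 genes planted at a |log2(FC)| of 1 and 82 of 100 at 2 with the design at 2 weeks, and 66 and 99 of 100 at 10 weeks. It also called 28 and 8 unchanged genes. The planted genes had higher wild type levels than *Ppara*, *Nr1h3* and *Abcg1*, and no low library or GC trend was simulated. These rates therefore need not hold for all 10 members.

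The genes, their lists and the tests were chosen with earlier results of these data known. Named were all 10 genes, their other isotypes and, per list, direction and age, up to 3 changed genes with the largest change. *Srebf1* was named after its values were seen. Some genes that this rule names are counted in their lists but not reported here. Transcript length and GC content came from GENCODE (92.1% of genes), and promoters from RefSeq. Alternatives were pseudocounts of 1 and 0.01, 2 other filters, 2 scalings, removal of the length and GC trend, a constant prior variance, the replicate number as a block, 1 fit of all groups, and leaving out each mouse; combinations with leaving out *Socs3* cKO replicate 1 at 2 weeks, and counts of the lists under other treatments, were added after the values were seen.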

Additional observations from a re-analysis of the deposited data

Results flagged for a closer look

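Of the 30 groups of 4 mice examined, 5 held a mouse whose gap to its nearest neighbour was too large a part of the group's range by Dixon's test, where chance flags about 1 in 20 groups. At 2 weeks they were *Ppard* at 0.623 FPKM and *Rarg* at 7.34 FPKM, both in *Socs3* cKO replicate 1. At 10 weeks they were *Nr1h2* at 32.8 FPKM in *Socs3* cKO replicate 3, *Nr1h3* at 4.14 FPKM in replicate 1 and *Rxrb* at 17.1 FPKM in replicate 4.

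The effect of genotype differed between the ages by the interaction test in limma for *Ppard* (2.61), *Rara* (2.52), *Rxra* (2.00) and *Abca1* (0.84). Across all genes tested 47.0% had an interaction and 34.6% a positive one, so these 4 of 10 members are near the background. Over 28 alternatives the interaction passed in 28 for *Rara*, 27 for *Ppard*, 25 for *Rxra* and 12 for *Abca1*.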

How the results depend on the processing

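The number of members changed at 2 weeks (2) became 5 with quantile normalization (54.1% of all genes), 4 with the length and GC trend removed (40.8%) and 5 in 1 fit of all 4 groups (53.7%). Without *Socs3* cKO replicate 1 as well, it was 6 with median-of-ratios scaling (62.2% of all genes), 7 with quantile normalization (62.0%) and 6 with the trend removed (56.7%). At 10 weeks (2) it became 1 with median-of-ratios scaling, with quantile normalization and in 1 fit of all groups, and 3 with the trend removed (34.0% to 39.2% of all genes in these fits). Leaving out each mouse in turn gave 1 to 7 at 2 weeks, 0 to 2 at 10 weeks, 1 to 7 for the interaction, 0 to 6 with age in wild type ears and 0 to 1 with age in *Socs3* cKO. In the same order the share of all genes was 28.9% to 61.3%, 22.3% to 44.7%, 37.7% to 54.9%, 36.8% to 63.3% and 5.59% to 22.4%. Over all genes, 6479 calls at 2 weeks became 3885 without wild type replicate 2, and 4931 at 10 weeks became 2888 without wild type replicate 3. The causes were not tested.

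Several values turned their sign, and *Nr1h2*, *Rxrb* and *Ppara* also passed the threshold in the turned direction in some alternatives at 2 weeks. At 2 weeks *Ppara* (0.00) was 0.039 with a pseudocount of 1, 0.18 with median-of-ratios scaling, 0.49 with quantile normalization and 0.30 with the trend removed, and without replicate 1 as well 0.48, 0.68 and 0.60 in the last 3. *Nr1h2* (-0.20) took values of 0.0088 under median-of-ratios scaling and 0.63 with the trend removed, and 0.19 and 0.59 without replicate 1 as well. *Rxrb* (-0.93) was 0.23 with the trend removed and 0.39 without replicate 1 as well, where *Rxra* was 0.063. *Abca1* (-0.17) was 0.038 under median-of-ratios scaling, 0.12 with quantile normalization and 0.0085 with that and without replicate 1. At 10 weeks, median-of-ratios scaling gave -0.22 for *Nr1h2*, -0.18 for *Rara*, -0.021 for *Rarg* and -0.12 for *Abcg1*, and quantile normalization -0.20, -0.33, and -0.31 for *Nr1h2*, *Rara* and *Abcg1*, -0.061 for *Ppard* and -0.051 for *Rxrb*. *Rxra* over *Rxrb* at 10 weeks was -0.066 with the trend removed. Leaving out each mouse gave -0.25 to 0.36 for *Ppara* and -0.33 to 0.064 for *Nr1h2* at 2 weeks, and -0.041 to 0.081 for *Nr1h2*, -0.062 to 0.23 for *Rara* and -0.12 to 0.32 for *Abcg1* at 10 weeks.

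Replicate numbers gave no sign of pairing, though so few mice cannot show how they were paired. Same-numbered mice of both genotypes deviated with a mean correlation of 0.02 at 2 weeks (-0.04 to 0.14) and -0.11 at 10 weeks (-0.21 to 0.07). For mice of different numbers the mean was -0.007 and 0.04. The replicate block gave 2 members at 2 weeks, 2 at 10 weeks, 4 interactions, 5 with age in wild type ears and 0 in *Socs3* cKO. In the same order it called 40.3%, 36.6%, 46.4%, 49.4% and 8.71% of all genes. Without *Socs3* cKO replicate 1 as well, it gave 6 at 2 weeks and 7 interactions (53.3% and 52.2% of all genes), with *Ppara* at 0.42 and *Nr1h2* at 0.053.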
